A study of Mus musculus with 5 samples.

Results

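Carbonic anhydrases are enzymes, most of them zinc-dependent, that interconvert carbon dioxide and bicarbonate and so govern how fast carbon dioxide, protons and bicarbonate move between blood, cells and alveolar gas. The family divides by location: cytosolic forms (Car2, Car3, Car13), a mitochondrial form (Car5b), forms anchored at the cell surface (Car4, Car9, Car14), and Car8, a related protein without catalytic activity. In lung, Car4 lies on the luminal face of capillary endothelium and Car2 is abundant in red cells, and both are known for their part in the release of carbon dioxide.

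The family was described in the lungs of inbred 129svJ mice given bleomycin, an antitumour antibiotic used to injure the lung. Each of the 5 two-colour arrays carried amplified lung RNA of 1 bleomycin-treated mouse, and the same pool of amplified lung RNA from control 129svJ mice stood in the other channel of every array. The sources used here give no dose, route, time after treatment, age, sex or number of mice in the pool. The members were chosen by symbol and by whether values were present: they are the 8 genes Car13, Car2, Car3, Car4, Car5b, Car8, Car9 and Car14, kept where a feature (a spot of the array) of that symbol had values on at least 4 arrays. This found 7 genes, measured by 8 features, among 10081 genes and unnamed features. Car14 matched no symbol of the platform's gene table and was not analysed here. The choice rested on the presence of a value, and the family was proposed with its ratios known, so its ratios and calls are a description.

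Each feature has 1 deposited log ratio per array, which was centred on the array's median and taken as log2. No source names the log base, and every fold would be larger if the logarithm were natural. The labels name the mouse first and the pool second but give no dyes. Values of inflammation and alveolar genes were judged to oppose that order, but the direction of the ratio was not tested. Only the side of 0 is therefore given, without saying whether mouse or pool held more RNA. Arrays held values for 11350 to 12083 of 17280 features, and their number limits the precision. No scanner intensities were used here, so neither the level of a gene nor the labelled tissue can be checked from these ratios. In bulk lung, fewer cells of a type and less RNA per cell cannot be told apart.

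Among the carbonic anhydrases, Car13 stood far below 0, Car8 somewhat below 0 and Car3 above 0, while Car2, Car4, Car5b and Car9 lay within 0.1 of 0. Car13 averaged −1.72 ± 0.075 (SD, n = 5 mice), a 3.28-fold difference between mouse and pool (5.56-fold if the logarithm were natural). Car8 averaged −0.44 ± 0.14 and Car3 0.83 ± 0.39, a 1.36-fold and a 1.78-fold difference. By limma with Benjamini-Hochberg adjustment over all features, the adjusted p was 8.87e-06 for Car13, 0.00159 for Car8 and 0.00266 for Car3. Thus 3 of the 7 genes were past the threshold of adjusted p = 0.05, 2 below 0 and 1 above 0. Over all genes and unnamed features 49.6% passed, 23.9% below 0 and 25.8% above 0. The family's 42.9% lies close to this background, and nothing is read from the count. The median ratio was −0.025 over the 7 genes and −0.0066 over all features, and the median size regardless of sign was 0.078 against 0.21.

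The test takes the pool as free of error. A stricter setting treats it as a single control animal that varies as much as the treated mice do, and is called the single-control setting. There Car13 passed (limma, adjusted p = 0.00434), whereas Car3 (adjusted p = 0.217) and Car8 (adjusted p = 0.171) did not, against 5.09% of all features that passed. With a difference of at least 1.2-fold required, Car13 and Car3 passed and Car8 did not (adjusted p = 0.0706), against 18.3% of all features.

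**Figure D1:**
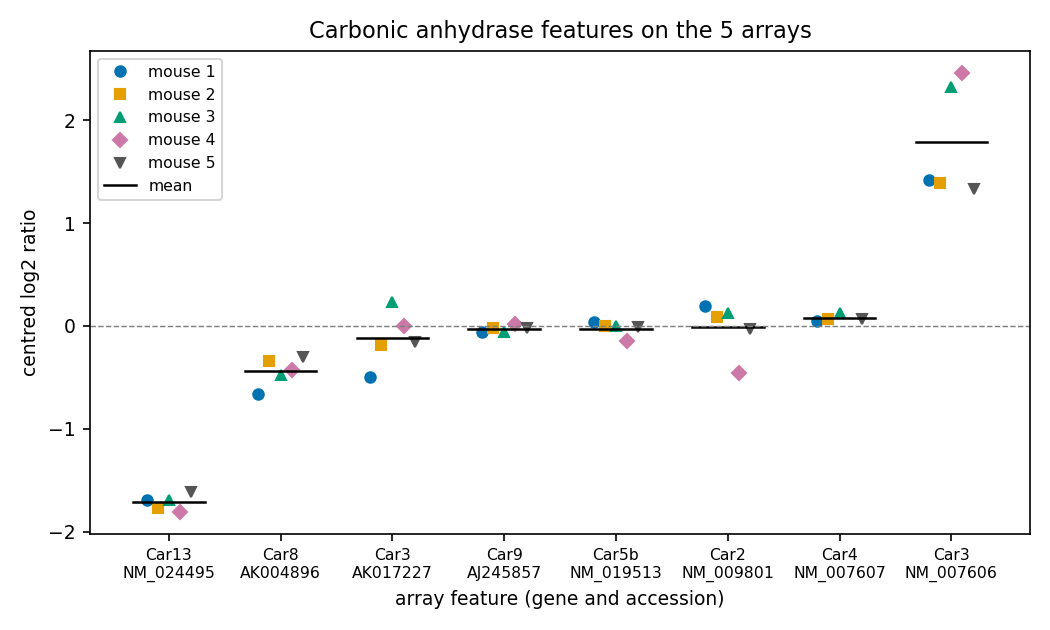
Centred log2 ratio (vertical axis) of each of the 8 features of the carbonic anhydrases (horizontal axis, gene and accession), with 1 symbol per mouse and a line at the mean of each feature. The 5 mice lie between −1.81 and −1.61 for Car13, and the Car3 feature NM_007606 stands between 1.34 and 2.46 while the other Car3 feature stands between −0.49 and 0.23.

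Car13, a cytosolic isozyme, had the lowest ratio of the family and one of the narrowest spreads among genes so far from 0. Its log2 ratio was −1.69, −1.77, −1.695, −1.81 and −1.61 in mice 1 to 5. All mice lay below 0 within a range narrower than the distance to any other member. Of the 10081 genes and unnamed features, 51 had a lower mean than Car13, and 0 of these 51 had a smaller SD. This cut lies at the mean of Car13 itself and covers only genes below 0. Rpl39, just above the cut at −1.70, had a smaller SD of 0.058. Leaving out any 1 mouse gave means from −1.74 to −1.69, with adjusted p from 4.6e-05 to 0.000151.

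Among 7437 named genes with values on all 5 arrays, the ones whose ratios lay nearest to Car13, by the root mean square difference over the 5 arrays, were Rpl39, Cdkn1a and Spc25. Rpl39, a protein of the large ribosomal subunit, differed from Car13 by 0.065 log2 units and averaged −1.70 ± 0.058. Cdkn1a, the cyclin-dependent kinase inhibitor induced by p53, differed by 0.17 and averaged −1.61 ± 0.13. Spc25, a kinetochore protein of dividing cells, differed by 0.18 and averaged −1.73 ± 0.23. This likeness is over 5 arrays that share the pool and says only that the ratios were of similar size.

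In the RefSeq gene table of the GRCm38.p6 assembly, Car13, Car1, Car3 and Car2 are consecutive protein-coding genes. Their ratios did not go together. Car13 stood at −1.72, its neighbour Car1 had values on only 2 arrays (−0.005 and 0.046 in mice 1 and 2), Car3 stood at 0.83 and Car2 at −0.014. Neighbouring genes of this cluster thus lay below 0 or near it, and clearly above 0 only by 1 of the 2 Car3 features, which averaged 1.79 and −0.12.

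Car3 is a cytosolic isozyme of low activity, abundant in skeletal muscle and adipocytes, and its 2 features disagreed. The feature for NM_007606 read 1.42, 1.39, 2.33, 2.46 and 1.34 in mice 1 to 5, a mean of 1.79 ± 0.56 (SD, n = 5). All mice were above 0 in this feature, and mice 3 and 4 stood apart at the high end. The feature for AK017227 read −0.49, −0.18, 0.23, −0.001 and −0.16, a mean of −0.12 ± 0.27, with mice on both sides of 0. With features kept separate, where 49.6% of features passed, the first passed (limma, adjusted p = 0.000412) and the second did not (adjusted p = 0.345). The first exceeded the second in every mouse, by 1.91 ± 0.40. Of 462 genes with several features, 4, Car3 among them, had feature means at least that far apart, and the median gap was 0.31. The average of 0.83 for Car3 therefore lies between 2 unlike measurements, and the sources used here do not settle which feature reports the gene.

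In both features mice 3 and 4 were the highest. Of 17 skeletal muscle genes with values on all 5 arrays, 15 were also highest in these mice, and Myh8 and Actn3 were not. The share of all features highest in these mice was not counted. Neither this count nor that of the adipocyte genes below is therefore read as particular to its tissue or as a link to Car3. The median ratio of 22 measured skeletal muscle genes was −2.93, −1.25, −0.035, −0.25 and −1.48 in mice 1 to 5. Of these 22 genes 13 passed below 0, 1 above 0 and 8 did not pass, against 23.9% and 25.8% of all features. The lowest means on that list belonged to the troponin Tnnc2 at −3.74 ± 2.34 and the myosins Myh8 at −3.44 ± 2.08 and Myh2 at −3.03 ± 2.61, all with a wide spread. None of these 3 passed in the single-control setting (adjusted p = 0.323, 0.309 and 0.475) or by a plain one-sample test (adjusted p = 0.0567, 0.053 and 0.11). Myh2 also missed with the 1.2-fold minimum (adjusted p = 0.0604) and without mouse 1, 2 or 5 (adjusted p = 0.0649, 0.0812 and 0.0832). The muscle creatine kinase Ckm, chosen after its values were seen, read −2.71, −2.03, 1.23, 0.42 and −1.47. The median of the muscle list lay below 0 in every mouse, where the NM_007606 feature lay above.

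Of 12 measured adipocyte genes, 5 passed above 0, 0 below 0 and 7 did not pass, against 25.8% and 23.9% of all features, with a median of 0.21. By mouse, the list's median was 0.26, 0.070, 0.45, 0.26 and 0.086 in mice 1 to 5, highest in mouse 3 and about equal in mice 1 and 4. Ucp1, the uncoupling protein of brown fat, averaged 1.98 ± 0.48, the lipid droplet protein Cidea 0.998 ± 0.16 and the hormone-sensitive lipase Lipe 0.93 ± 0.27. In the single-control setting Ucp1 and Cidea passed (adjusted p = 0.0423 and 0.0251) and Lipe did not (adjusted p = 0.0852). The order by mouse differed between the adipocyte genes. Of 11 adipocyte genes with values on all 5 arrays, 3 (Adipoq, Lpl and Slc2a4) were highest in mice 3 and 4, and 4 were highest in mouse 1, Ucp1 with 2.55 and Cidea with 1.21 among them. None of Adipoq, Lpl and Slc2a4, named after their values were seen, passed (adjusted p = 0.378, 0.125 and 0.716). The part of muscle or fat RNA in the Car3 ratios was not tested.

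**Figure D2:**
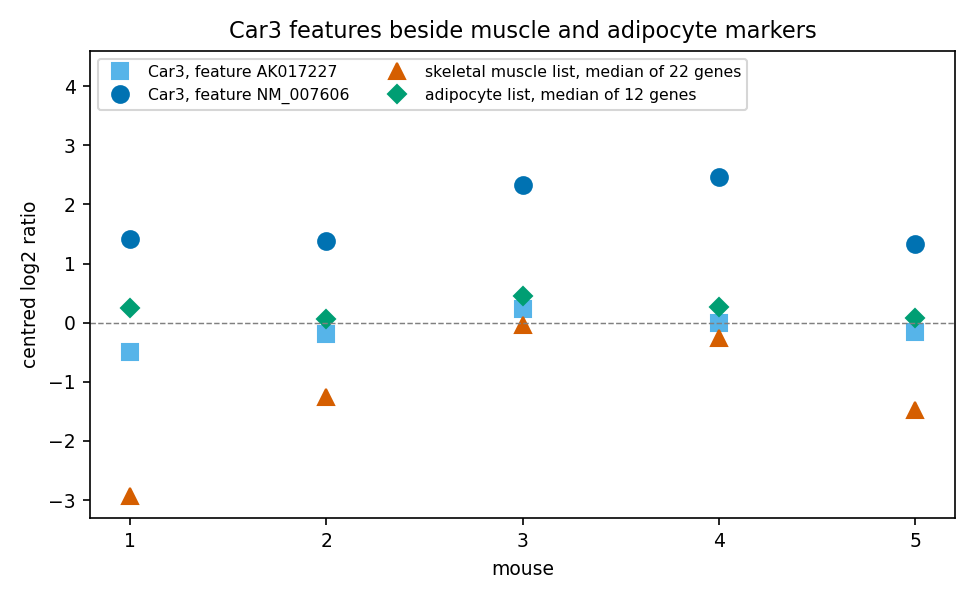
Centred log2 ratio (vertical axis) by mouse (horizontal axis) of both Car3 features, of the median of 22 skeletal muscle genes and of the median of 12 adipocyte genes. Mice 3 and 4 are highest in both Car3 features and in the muscle median, the adipocyte median is highest in mouse 3, and the NM_007606 feature stays above 1.3 in all mice while the muscle median runs from −2.93 to −0.035.

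Averaged over both features, the genes nearest to Car3 were Alyref, Wsb1 and BC004004, at root mean square differences of 0.13, 0.14 and 0.15 log2 units over 5 arrays. Alyref, an mRNA export adaptor, averaged 0.74 ± 0.32 and Wsb1, a substrate receptor of a ubiquitin ligase, 0.77 ± 0.34. BC004004, named here by its symbol only, averaged 0.82 ± 0.42. The 3 genes are near an average of features that disagree, not near either feature.

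Car8, which lacks carbonic anhydrase activity and binds the inositol trisphosphate receptor Itpr1, was the other gene past the threshold below 0. Its log2 ratio was −0.67, −0.34, −0.48, −0.43 and −0.30 in mice 1 to 5. All mice lay below 0, and mouse 1 was the lowest. Leaving out any 1 mouse gave means from −0.48 to −0.39, with adjusted p from 0.00309 to 0.008. Of the 3 inositol trisphosphate receptors only Itpr2 was measured, at −0.089 ± 0.11, and it did not pass (adjusted p = 0.236); it is named as the only one measured.

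Car2, the highly active cytosolic isozyme of red cells and osteoclasts, averaged −0.014 ± 0.26 (95% interval −0.25 to 0.22; adjusted p = 0.914). It read 0.19, 0.091, 0.13, −0.46 and −0.031 in mice 1 to 5. Mouse 4 stood below the others, and without it the mean was 0.096 (adjusted p = 0.259). With the pool taken as free of error, the interval leaves room for a difference of up to 1.19-fold. In the single-control setting the interval was wider, from −0.58 to 0.55.

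Of 12 measured genes of erythroid cells, a main site of Car2, 4 passed below 0, 3 above 0 and 5 did not pass, with a median of −0.12. These counts are near the 23.9% and 25.8% of all features. Epb42, a protein of the red cell membrane skeleton, averaged 1.39 ± 0.18, Bpgm, the enzyme that makes bisphosphoglycerate, 0.70 ± 0.31 and Alas2, the erythroid enzyme of haem synthesis, 0.43 ± 0.14. On the other side stood the erythropoietin receptor Epor at −0.53 ± 0.076 on 4 arrays, the biliverdin reductase Blvrb at −0.41 ± 0.18 and the transcription factor Gata1 at −0.39 ± 0.22. Epb42 passed in the single-control setting (adjusted p = 0.0123), and the other 5 did not. Among 6 measured genes of osteoclast-type acid secretion, 2 passed above 0 and 0 below 0, against 25.8% and 23.9% of all features. The 2 were the cathepsin Ctsk at 0.43 ± 0.16 on 4 arrays and the chloride transport subunit Ostm1 at 0.17 ± 0.094. Neither passed in the single-control setting (adjusted p = 0.232 and 0.508), and Ostm1 was lost without mouse 1, 2, 3 or 5 (adjusted p = 0.0728, 0.0715, 0.0957 and 0.0966).

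Car4, the enzyme anchored on capillary endothelium, averaged 0.078 ± 0.033 (n = 4 mice; 95% interval −0.055 to 0.21; adjusted p = 0.275). It read 0.048, 0.068, 0.13 and 0.072 in mice 1, 2, 3 and 5, and mouse 4 had no value. All measured mice were above 0, but only 21.6% of features had a smaller mean size and 0.9% a smaller SD. A plain one-sample test, which does not borrow spread from other genes, put it just past the threshold (adjusted p = 0.0474). By that test 3866 of 10081 genes and unnamed features passed, 2022 of them above 0.

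Most endothelial genes that passed lay above 0. Of 24 measured genes of lung capillary endothelium, 14 passed above 0, 3 below 0 and 7 did not pass, with a median of 0.36. Over all features 25.8% passed above 0 and 23.9% below 0. The angiotensin-converting enzyme Ace, like Car4 an enzyme on the capillary surface, stood on the other side at −0.96 ± 0.11 (−0.81, −1.01, −0.91, −0.98 and −1.104 in mice 1 to 5) and also passed in the single-control setting (adjusted p = 0.0165). The apelin receptor Aplnr at −0.34 ± 0.095 and the diaphragm protein Plvap at −0.29 ± 0.12 lay below 0 as well, but not past the threshold in that setting (adjusted p = 0.208 and 0.315). Pecam1, Tmem100 and Tek had the highest means of the list, at 2.45, 2.32 and 1.54. The Car4 ratio of 0.078 lay nearer to 0 than the median of this list. Signal over background is unknown for Car4, so whether its RNA was well detected was not tested.

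Other lung cell types gave the following ratios, beside 23.9% of all features past the threshold below 0 and 25.8% above 0. Of 14 measured macrophage genes 11 passed below 0, 1 above 0 and 2 did not pass, with a median of −0.62. Alveolar epithelial genes had 6 of 12 above 0 and 0 below 0, with a median of 0.65, and airway epithelial genes 6 of 9 above 0 and 1 below 0, with a median of 0.25. Lists of macrophage, alveolar and endothelial genes in earlier results of these data overlap with these and lay on the same sides, so these counts are not independent of them.

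Car9, a transmembrane enzyme and a well-known target of hypoxia-inducible factor, averaged −0.026 ± 0.033 (95% interval −0.13 to 0.082; adjusted p = 0.661). It read −0.054, −0.019, −0.058, 0.023 and −0.021 in mice 1 to 5. Mice lay on both sides of 0 and within 0.06 of it, and 0.9% of features had a smaller SD. With the pool taken as free of error, the interval leaves room for a difference of up to 1.097-fold. In the single-control setting the interval was wider, from −0.29 to 0.24. Signal over background is unknown, so it was not tested whether the RNA was well detected.

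The promoter of Car9 is shown because the gene is read as a hypoxia reporter in many tissues. The 60 bases before its annotated start in RefSeq (GRCm38.p6, chr4:43506966-43507025, plus strand) hold 1 match to ACGTG, the core of the hypoxia response element, which on the printed strand reads CACGT and is in capitals, 18 to 14 bases before the start.
Car9: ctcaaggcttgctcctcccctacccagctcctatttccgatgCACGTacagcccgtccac
The search covered both strands, and ACGTG read on the other strand is CACGT. Of 32851 promoter windows of 300 bases (250 before and 50 after the start), 19.6% hold these letters on either strand. The Car9 window of that length holds 1 match. This share is for longer stretches than the 60 bases printed. The match is a description of the sequence and not evidence that the factor binds there in these lungs.

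Of 29 measured genes of the hypoxia response, 6 passed below 0, 9 above 0 and 14 did not pass, with a median of 0.068. These shares lie near the 23.9% and 25.8% of all features. Hk1, hexokinase 1, averaged −1.44 ± 0.38 and the haem oxygenase Hmox1 −0.76 ± 0.63. Slc16a3, a lactate and proton transporter also on this list, averaged −0.76 ± 0.38 and is named again below. The glycolytic regulator Pfkfb3 averaged 1.41 ± 0.39, the oxygen-regulated factor Hif1a 0.86 ± 0.52 and the collagen prolyl hydroxylase P4ha2 0.76 ± 0.086. P4ha2 read 0.86, 0.71, 0.65, 0.84 and 0.76 in mice 1 to 5. It alone among these genes passed in the single-control setting (adjusted p = 0.024). Hmox1 was lost without mouse 4 (adjusted p = 0.0721), with the 1.2-fold minimum (adjusted p = 0.123) and by a plain one-sample test (adjusted p = 0.102), which lost Hif1a too (adjusted p = 0.0526). Vegfa, the vascular growth factor, did not pass (0.78 ± 0.88, adjusted p = 0.0646) and was chosen after its values were seen.

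Car5b, the mitochondrial isozyme that supplies bicarbonate to carboxylases, averaged −0.025 ± 0.069 (95% interval −0.14 to 0.093; adjusted p = 0.7). It read 0.037, −0.003, −0.002, −0.14 and −0.013 in mice 1 to 5. Mouse 4 stood apart below the others, and without it the mean was 0.0047 (adjusted p = 0.95). Of 4 measured genes of bicarbonate-using enzymes, 2 passed above 0, 0 below 0 and 2 did not pass, against 25.8% and 23.9% of all features. Pyruvate carboxylase, Pcx, averaged 0.73 ± 0.36 and Pcca, the alpha subunit of propionyl-CoA carboxylase, 0.32 ± 0.103. Neither of these 2 passed in the single-control setting (adjusted p = 0.239 and 0.238). The other 2, named to complete the list, did not pass by limma. They were Pccb, the beta subunit of the same carboxylase, at −0.055 ± 0.098 (adjusted p = 0.434) and Cad at 0.070 ± 0.11 (adjusted p = 0.349).

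In order of the mean ratio, the genes ran from Car13 through Car8, Car9, Car5b, Car2 and Car4 to Car3. Car8 exceeded Car13 on 5 of 5 arrays by 1.27 ± 0.16, and Car9 exceeded Car8 on 5 of 5 by 0.42 ± 0.13. Car3 exceeded Car4 on 4 of 4 arrays by 0.65 ± 0.34 as the average of its features, but its AK017227 feature exceeded Car4 on only 1 of 4, so its place at the top rests on the NM_007606 feature. The middle neighbours, Car9 and Car5b, Car5b and Car2, and Car2 and Car4, had overlapping ranges, and none of these 3 pairs differed by more than its spread. Car4 has no value in mouse 4, where Car2 was lowest, and on the 4 arrays they share Car4 exceeded Car2 on 1. Of the 7 genes, 4 lay on 1 side of 0 on every measured array, against 57.3% of all features.

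**Figure D3:**
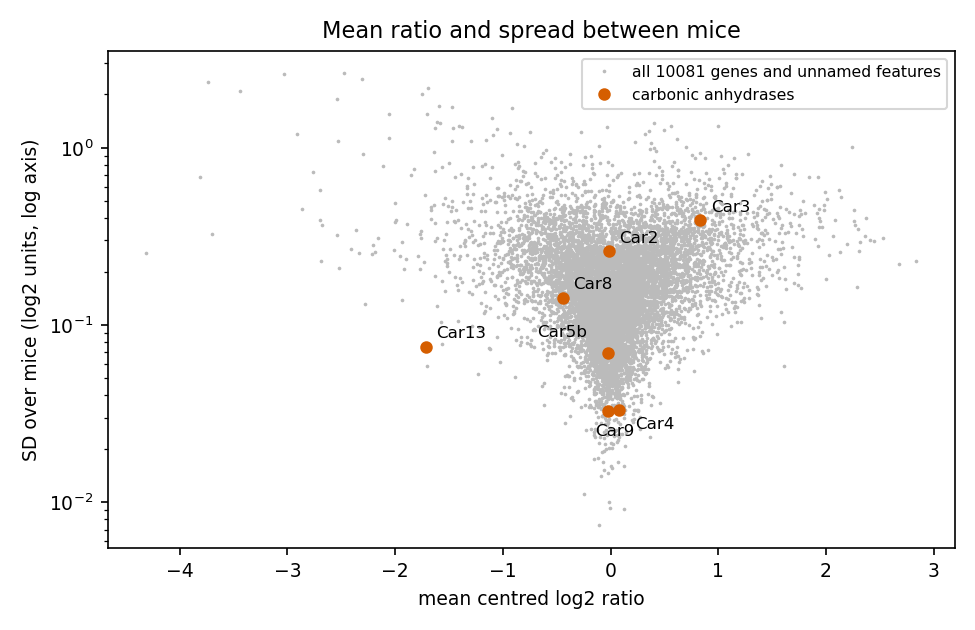
Mean centred log2 ratio (horizontal axis) against the SD over mice (vertical axis, log scale) of all 10081 genes and unnamed features in grey, with the 7 carbonic anhydrases marked. Car13 sits at −1.72 with an SD of 0.075, and Car4 and Car9 sit near 0 with SDs of 0.033.

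**Figure D4:**
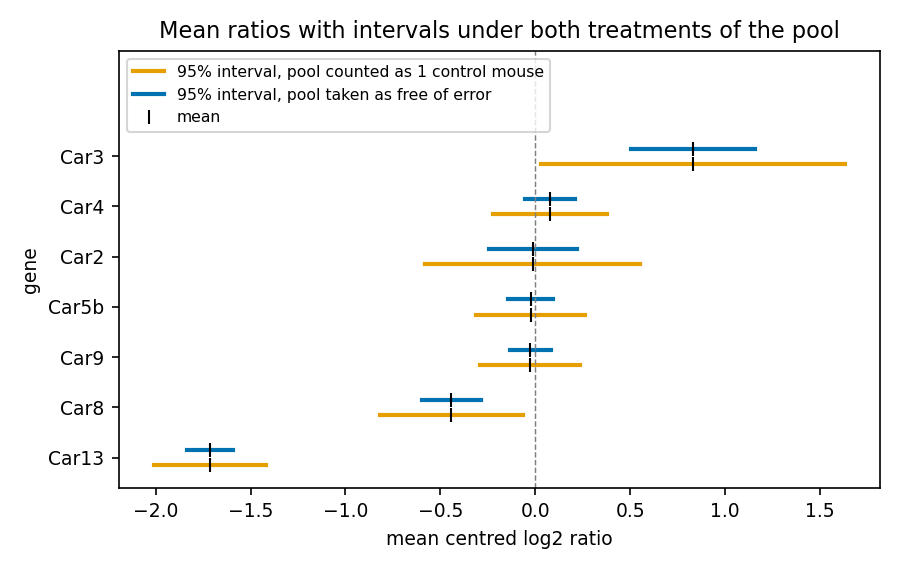
Mean centred log2 ratio (horizontal axis) of each gene (vertical axis) with its 95% interval from limma, once with the pool taken as free of error and once in the single-control setting. The interval of Car13 runs from −1.84 to −1.60 in the first setting and from −2.01 to −1.42 in the second, and those of Car2, Car4, Car5b and Car9 include 0 in both.

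The rest of the family was measured less completely. Of 16 family genes listed, 15 had a feature on the platform and 11 had values on at least 4 arrays, 4 of them not among the 8 chosen. Car12, a transmembrane form, averaged 0.28 ± 0.17 (n = 5; adjusted p = 0.0166) and Car15, a membrane-anchored form, 0.23 ± 0.086 (n = 4; adjusted p = 0.0215), both above 0 on every measured array. Neither passed in the single-control setting (adjusted p = 0.419 and 0.391), Car12 missed by a plain one-sample test (adjusted p = 0.0542), and Car15 missed without mouse 2, 3 or 4 (adjusted p = 0.0599, 0.0772 and 0.0746). Car6, the secreted form, averaged −0.041 ± 0.15 on 4 arrays (adjusted p = 0.672). Car10, another form without catalytic activity, had 2 features on opposite sides, at 0.24 ± 0.22 and −0.23 ± 0.13, whose average was 0.0024 ± 0.15 (adjusted p = 0.978).

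At the limit of 4 arrays, Car4, Car6 and Car15 were just inside with 4 values each, and Car1 and Car7 were outside with 2 each. Car7 read 0.302 and −0.32 in mice 4 and 5. Car5a and Car11 had no value on any array. Over the 11 measured family genes, 2 passed below 0, 3 above 0 and 6 did not pass, against 23.9% and 25.8% of all features. A separate protein with a carbonic anhydrase-like domain, the receptor phosphatase Ptprg, averaged 0.51 ± 0.21 (adjusted p = 0.0023), but did not pass in the single-control setting (adjusted p = 0.204).

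Among transporters that move the substrates and products of these enzymes, pendrin lay farthest from 0. Of 21 measured genes of bicarbonate, proton and carbon dioxide transport, 3 passed below 0, 5 above 0 and 13 did not pass, with a median of 0.097, against 23.9% and 25.8% of all features. Pendrin, Slc26a4, which exchanges chloride for bicarbonate and is induced in inflamed airway epithelium, averaged −2.68 ± 0.37, a larger size than that of any carbonic anhydrase. It read −2.17, −2.64, −2.88, −3.16 and −2.56 in mice 1 to 5, below 0 in every mouse, and passed in the single-control setting (adjusted p = 0.0111).

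The lactate and proton transporter Slc16a3 at −0.76 ± 0.38 and the proton channel Hvcn1 at −0.32 ± 0.15 lay on the same side as pendrin. Above 0 stood the water channel Aqp1 at 0.76 ± 0.28, the ammonium transporter Rhcg at 0.702 ± 0.20 and the monocarboxylate transporter Slc16a7 at 0.49 ± 0.17. None of these 5 passed in the single-control setting, at adjusted p from 0.102 to 0.309. The anion exchanger of red cells, Slc4a1, which works beside Car2, did not pass (−0.203 ± 0.28, adjusted p = 0.147) and was chosen after its values were seen.

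**Figure D5:**
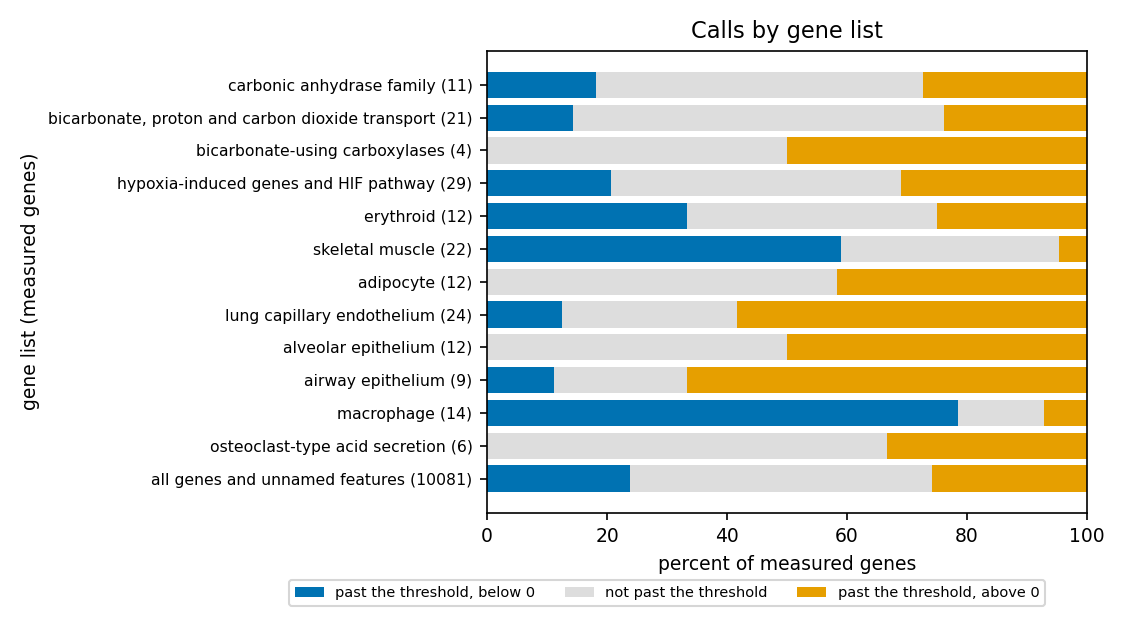
Share of the measured genes of each list (horizontal axis, percent) past the threshold below 0, past it above 0 and not past it, with the number of measured genes in brackets and all genes and unnamed features as the last bar. The carbonic anhydrase family has 2 of 11 below 0 and 3 of 11 above 0, close to the 23.9% and 25.8% of all features.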

How the data were processed

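The authors deposited 1 log ratio of the 2 channels per feature, for 17280 features on 5 arrays. What the authors did to make these log2 values (dyes, scanner, normalization, log base) is not given in the sources. They were read as log2 ratios because the lowest value, −5.74, as a log10 would exceed the range of a 16-bit scanner, which is itself an assumption. Array medians lay between 0.011 and 0.026, so the deposited values were already centred near 0, and array medians were subtracted again. Features with values on at least 4 arrays were kept (10702) and averaged by symbol, after updating symbols through gene identifiers. Means were compared with 0 by limma 3.58.1 under R 4.3.3 (intercept only, two-sided, Benjamini-Hochberg over all 10081). The pool counts as 1 control sample, so the spread between control mice is left out. The sources name no dye swap, so whether dye bias cancels is unknown. Nothing says how far the 5 mice are independent beyond their separate numbers. The smallest two-sided p that exact sign permutation could reach here is 0.0625, and p-values therefore depend on the model. The procedure was tested on simulated data without the error of a shared pool, so that test cannot show how the pool affects the calls.

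Members and lists were chosen with earlier results of these data known. Named genes are all family genes and, per list, up to 3 genes past the threshold farthest from 0 on each side with 1 sign on every array, plus the 3 nearest to the lowest and highest member. Exceptions are marked. Alternatives were no centring, values on at least 3 or on all 5 arrays, separate features, a robust prior, a plain one-sample test, a 1.2-fold minimum, the single-control setting and leaving out each mouse.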

Additional observations from a re-analysis of the deposited data

Results flagged for a closer look

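Car5b in mouse 4, at a log2 ratio of −0.144, lay farther from the other 4 mice than Dixon's 95% critical value allows for a group of 5 (gap over range 0.724, critical value 0.71). Chance alone would mark about 5% of groups this way, and 8 features and 1 average were examined. Car2 was also lowest in mouse 4, at −0.455, but within the critical value (0.653).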

How the results depend on the processing

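Of 91 alternative fits of the 7 genes, 83 kept their side of 0 and of the threshold. Those of Car13 did so under every alternative run, with adjusted p from 7.49e-06 to 0.00434. For these genes the mean could change only without centring, without a mouse or, for Car3, with features kept separate. In the other settings the mean stayed the same, so its side of 0 could not change. Car2 turned to 0.0014 without centring. Leaving out each mouse gave −0.0663 to 0.096 for Car2 and −0.0405 to 0.0047 for Car5b, positive without mouse 4 in both. The AK017227 feature of Car3 stood at −0.12. In the single-control setting, 513 genes and unnamed features passed, 213 below 0 and 300 above 0, against 5002, 2406 and 2596, and of the carbonic anhydrases 1 passed, 1 below 0 and 0 above 0. With a difference of at least 1.2-fold required, 1847 passed, 811 below 0 and 1036 above 0, and of the carbonic anhydrases 2 passed, 1 below 0 and 1 above 0. Both settings ask more of a ratio by construction. With the plain one-sample test, 3866 genes and unnamed features passed, 1844 below 0 and 2022 above 0. Of the carbonic anhydrases 2 then passed above 0, Car4 being added. Without each mouse in turn, 4106 to 4616 passed, and the carbonic anhydrases that passed numbered 2 below 0 and 1 above 0 each time. Of the 45 genes named from lists, 13 passed in the single-control setting, 31 with the 1.2-fold minimum, 39 with the plain test and 42 in all 5 fits that left out a mouse. Car4 has no value when all 5 arrays are required. No paired analysis was possible because the 5 arrays form 1 group.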
